A study of Mus musculus with 12 samples.

Results

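Inflammasomes are protein platforms that form in the cytosol when a sensor meets a microbial product or a sign of damage. The sensor gathers an adaptor, the adaptor gathers the protease caspase-1, and caspase-1 matures IL-1 family cytokines and cuts gasdermin D, whose fragments open pores in the plasma membrane. In microglia, the resident macrophages of the brain, the NLRP3 inflammasome is the best known of these platforms. Described here are 10 mouse genes of this machinery other than Nlrp3: the sensors Nlrc4, Aim2 and Nlrp1b, the receptors Naip2 and Naip5 that hand bacterial ligands to NLRC4, the adaptor Pycard (ASC), the proteases Casp1 and Casp4, the pore former Gsdmd, and Nek7, a kinase that binds NLRP3. They were chosen by gene symbol, and Nlrp3 was left out because it is the gene removed in the knockout. A window belonged to a gene if the deposited table named that gene as its nearest transcription start site (TSS) and the start site lay within 100 kb. All 10 genes of the 15879 in the table had such a window, and together they held 49 of 63386 windows.

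The mark was H3K27ac, acetylation of lysine 27 of histone H3, which is found at active promoters and enhancers. It was measured by chromatin immunoprecipitation (ChIP) in forebrain cells that were captured with CD11b magnetic beads after myelin removal. Wild-type mice of the C57BL/6N background were set against a Cias1 knockout (Cias1 is an older name of Nlrp3) from Millennium Pharmaceuticals, called Nlrp3-/-, with 3 H3K27ac and 3 input libraries (sheared chromatin without antibody) per genotype, 12 libraries in all. The labels give no age, sex or treatment and no separate strain for the knockout. They do not say whether each library of a group came from separate animals, so part of the spread behind the p-values may be technical. The comparison asks whether H3K27ac at the partners and sister sensors of NLRP3 was different where Nlrp3 was missing.

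The H3K27ac libraries held 3726550 to 5028129 tags and the input libraries 3287009 to 6961590. Of the windows at the Nlrp3 promoter, the one centred 52 bp from the start site had 180, 180 and 195 H3K27ac tags in the 3 wild-type libraries and 1, 0 and 16 in the 3 knockout libraries. The one at 49 bp had 138, 91 and 119 against 17, 20 and 43, and both match the labels. The genes of homeostatic microglia stood at 15.3 times wild-type input and 19.03 times knockout input, and the 7 marker lists of other cells at 0.706 to 6.66 times and 0.840 to 8.61 times. The upper ends belonged to oligodendrocyte genes, followed by endothelial and mural genes at 5.14 and 5.60 times. Bulk chromatin cannot tell fewer cells of a type from less acetylation per cell. Some libraries stood apart. Wild-type replicate 1 had 0 tags at Y-linked promoters where the other H3K27ac libraries had 183 to 239. Its input library had 0 as well, where the other input libraries had 2 to 13. Wild-type replicate 1 therefore did not come from the same set of animals as wild-type replicates 2 and 3. Every knockout library had such tags, so sex may be unbalanced between the genotypes. The part of sex in the differences was not tested. Wild-type replicate 3 lay alone on the first principal component (31.1% of the variance) and knockout replicate 3 on the second (23.2%). The 10 genes, and several windows and pathway genes, are therefore also given with single libraries left out.

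Promoter sequence was compared first, since 9 of the 10 genes had a window within 1 kb of their start site. RefSeq promoter entries (GRCm38.p6, the assembly behind mm10) matched 9 of the 10 genes, and Gsdmd was not among them. Of 5 motifs searched on both strands of each 300-base entry, the letters GAGGAAGT, a PU.1 motif, were found in 3 of the 9 genes (Aim2, Nlrp1b and Pycard) and in 3.20% of all 32851 entries. PU.1 is the lineage factor of macrophages and microglia. The NF-kB motif (GGG and TTTCC with 2 free bases between) was found in 1 of the 9, Casp4, and in 1.63% of all entries. The interferon-stimulated response element (GAAA and GAAA with 2 free bases between, 3.44% of all entries), the composite ETS-IRF element (GGAA and GAAA, spaced alike, 2.72%) and the AP-1 motif TGANTCA (7.81%) were found in 0 of the 9. The PU.1 stretches are shown because these 3 genes had the highest, a middle and the lowest promoter acetylation of the 9 genes with a promoter window. A match describes the letters and not binding. The stretches run 5′ to 3′ on the gene's strand, with the motif in capitals. The Pycard match is on the opposite strand.
Aim2, chr1:173420465-173420524, plus strand: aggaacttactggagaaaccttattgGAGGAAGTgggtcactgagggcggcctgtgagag
Nlrp1b, chr11:71230796-71230855, minus strand: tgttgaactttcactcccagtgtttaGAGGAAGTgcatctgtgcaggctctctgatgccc
Pycard, chr7:127993878-127993937, minus strand: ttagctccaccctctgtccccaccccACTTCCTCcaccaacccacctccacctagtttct

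Casp4 and Casp1 are neighbours on chromosome 9. The 119 bases just upstream of each start site are shown because the Casp4 stretch holds 2 NF-kB matches (capitals) and the Casp1 stretch holds none of the 5 motifs.
Casp4, chr9:5308730-5308848, plus strand: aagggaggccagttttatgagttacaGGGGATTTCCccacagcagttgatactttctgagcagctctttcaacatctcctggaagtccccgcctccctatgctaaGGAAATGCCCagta
Casp1, chr9:5298398-5298516, plus strand: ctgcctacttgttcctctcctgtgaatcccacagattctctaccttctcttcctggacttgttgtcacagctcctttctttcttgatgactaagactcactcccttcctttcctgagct

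Naip2 and Naip5 lie in one gene cluster on chromosome 13, and their promoters share a closely matching stretch. It was placed and cut where both sequences agreed, so its identity is high by choice and does not describe the whole promoters. Of its 85 bases upstream of the start sites 77 were identical (90.6%), and capitals mark the bases that differ. The aligner is not given in the sources used here, so how tags from such matching stretches were placed is unknown. The values of both Naip genes are uncertain in that respect.
Naip2, chr13:100202123-100202207, minus strand: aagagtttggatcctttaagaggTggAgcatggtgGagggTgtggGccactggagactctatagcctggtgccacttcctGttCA
Naip5, chr13:100247344-100247428, minus strand: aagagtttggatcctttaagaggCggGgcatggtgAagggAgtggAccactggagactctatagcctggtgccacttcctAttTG

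The promoters also differed in CpG content. The Nek7 entry held 23 CpG dinucleotides, more than 78.5% of all entries, against a median of 7 over all of them. The other matched genes held 0 to 5, so Nek7 was the only one of the 9 above that median. NEK7 also acts outside immunity, as a kinase of cell division.

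All windows are 1000 bp long, so window length does not set their levels apart between genes. Nek7, Naip2 and Pycard had several windows within 1 kb of the start site. There the strongest was taken, which favours these genes in the order. The Naip values also carry the uncertain placement of tags given above. As CPM (tags scaled to a common library total, here the total of all tags), the promoter windows of the captured wild-type cells ranked from Aim2 (mean 25.3) and Casp4 (20.8) through Nek7 (12.5), Naip2 (11.9), Casp1 (11.1) and Nlrp1b (10.1) to Gsdmd (7.78), Naip5 (5.69) and Pycard (4.82). Neighbours in this order overlapped in their 3 libraries except Casp4 and Nek7, where the Casp4 libraries spanned 19.3 to 23.6 CPM and the Nek7 libraries 5.34 to 19.1 CPM. The median of all 17501 promoter windows measured was 6.31 CPM. The mean of Pycard, the shared adaptor of the NLRP3 and AIM2 platforms, lay below that median, as did all its wild-type libraries. The mean of Naip5 was also below, but its wild-type replicate 1 (6.98 CPM) was above. Nlrc4 had no window within 1 kb of its start site.

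**Figure D1:**
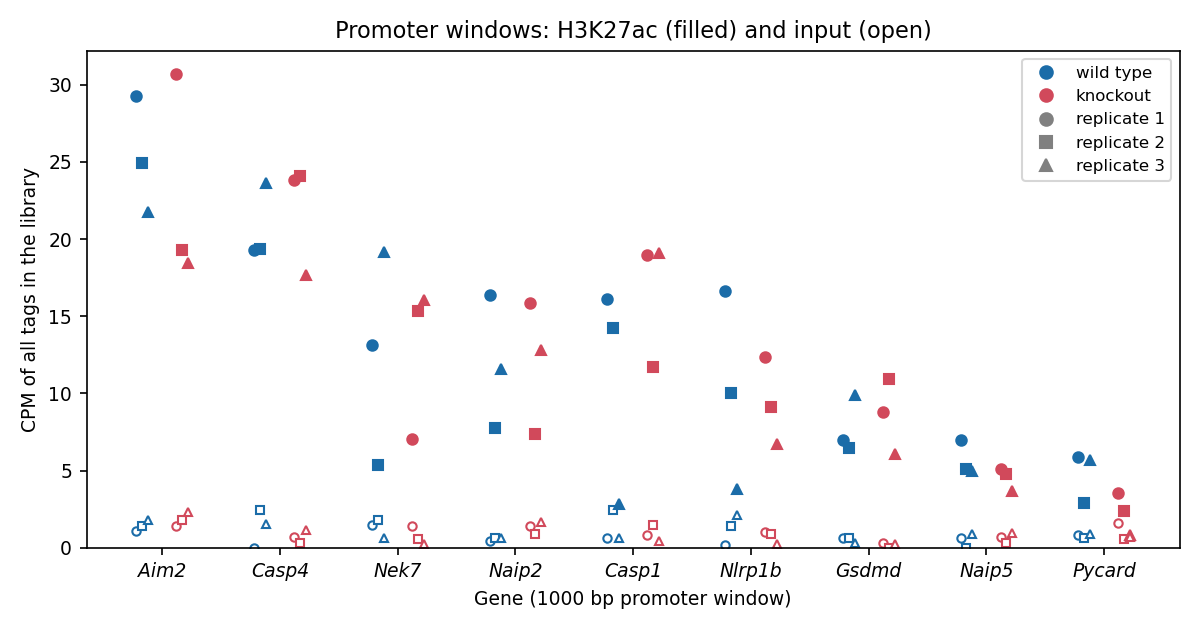
H3K27ac (filled symbols) and input (open symbols) in the promoter window of 9 inflammasome genes, as CPM of all tags in each library, with 1 symbol per library and shape for the replicate number. Aim2 and Casp4 stand highest, wild-type replicate 3 lies near input at Casp1, and the colours of the genotypes are interleaved at most genes.

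Input set the background in the same windows. H3K27ac was tested against input within each genotype with edgeR's quasi-likelihood test on total tags. Of the 43 windows of the 10 genes that were tested, 40 were above input in wild type, 38 in the knockout and 37 in both, next to 88.7% of all windows tested in wild type and 91.7% in the knockout. A window could pass the filter on low counts by its H3K27ac tags alone, which favours such calls. Without that filter, 41 (wild type) and 39 (knockout) of 49 windows were above input, next to 35936 and 37704 of all 67820. TMM scaling over windows, in place of total tags, assumes that most windows do not differ from input. With it, 5 of 47 windows passed in each genotype, next to 7697 (wild type) and 7852 (knockout) of all 48432 windows tested.

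Between genotypes, none of the 10 genes had H3K27ac that differed beyond the threshold used, an adjusted p of 0.05 over all 12148 genes tested in edgeR's quasi-likelihood test. Over all genes 0.206% were called. Of the 10, 3 had a higher and 7 a lower mean fitted value in the knockout, with a median log2 fold change of -0.11 against 0.0013 over all genes. The count at an unadjusted p under 0.05 was 1 of 10 (Nlrc4), and over all genes it was 5.77%. DESeq2 called 0 of the 10 as well. At 0 of the 10 did the 3 knockout libraries lie wholly above or below the 3 wild-type libraries, while 11.3% of all genes were separated in that way.

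Single windows gave the same count. Of 49 windows, 43 passed the filter on low counts, and edgeR called 0 of them, while 0.0595% of all windows were called. DESeq2 also called 0. The knockout value was higher in 18 and lower in 25, with a median log2 fold change of -0.11 (0.0042 over all windows), and the single values ranged from -1.83 to 0.60. At an unadjusted p under 0.05 stood 1 of 43 (a window in Nek7) and 4.69% of all windows. The genotypes did not overlap in 4 of the 43, with the knockout lower in each, against 10.9% of all windows, of either direction. The smallest adjusted p of the 43 was 0.998.

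**Figure D2:**
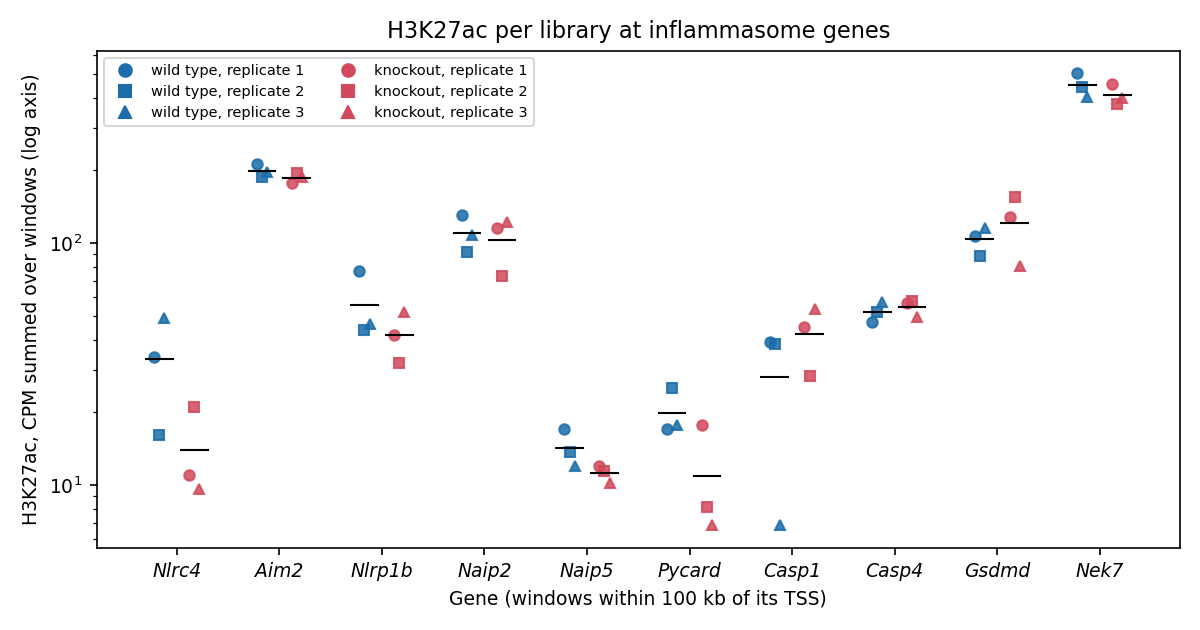
H3K27ac of the 10 inflammasome genes as CPM summed over their windows within 100 kb (log axis), 1 symbol per library and a black bar for the mean of the 3 libraries of a genotype. The genotypes overlap at every gene, and sums of different genes cover from 1 window (Naip5, Casp1, Casp4) to 16 (Nek7).

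Per gene, tags were summed over its windows, and CPM were taken on the TMM-normalized sum over tested genes. These sums grow with the number of windows, so they serve to compare libraries and not genes. The same scale, over tested windows, is used for single windows below.

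Among the sensors, Nlrc4 had the largest difference of the 10 genes. NLRC4 is the protein that assembles once a NAIP has bound flagellin or a part of a bacterial secretion needle. Summed over its 3 windows, H3K27ac was 52, 27 and 86 tags in wild-type replicates 1, 2 and 3, and 21, 44 and 17 tags in knockout replicates. Scaled to library size, wild-type replicate 2 (16.2 CPM) lay below knockout replicate 2 (21.1 CPM), so the groups overlapped. The means were 33.1 ± 16.5 CPM in wild type and 13.9 ± 6.22 CPM in the knockout (SD, n = 3 each). The fitted log2 fold change was -1.24 (SE 0.45, 95% interval -2.17 to -0.31), with an adjusted p of 0.624. Leaving out single libraries moved it from -1.67 (without knockout replicate 2) to -0.84 (without wild-type replicate 3), and the smallest adjusted p among these was 0.433.

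The 3 Nlrc4 windows are all intronic (chromosome 17) and hold few tags. Nearest the start site, 18463 bp into the gene in intron 5, were 21, 3 and 31 wild-type tags and 5, 18 and 8 knockout tags. The strongest, 27382 bp in and within intron 8, had 21, 13 and 31 against 9, 19 and 2. The window at 26317 bp, singled out after its values were seen, was the only one of the 3 without overlap, with 10, 11 and 24 wild-type tags against 7, 7 and 7. Their log2 fold changes were -1.06 (SE 0.79), -1.37 (SE 0.72) and -1.28 (SE 0.84), and each had an adjusted p of 0.998. Leaving out single libraries moved them from -1.61 to -0.54, from -2.12 to -0.92 and from -1.46 to -0.83, the first 2 of these low ends being without knockout replicate 2 and the last without wild-type replicate 2. In wild type these windows stood at 3.28, 4.88 and 5.08 times input, and in the knockout at 2.09, 3.05 and 1.80 times.

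Aim2, the sensor of double-stranded DNA in the cytosol, was measured more precisely. Over 13 windows on chromosome 1 it had 213, 187 and 197 CPM in wild type and 178, 194 and 188 CPM in the knockout, a narrow and overlapping span. The log2 fold change was -0.09 (SE 0.16), and its 95% interval ran from -0.41 to 0.23, which corresponds to 0.75-fold to 1.17-fold. With single libraries left out it stayed between -0.14 and -0.04. Its promoter window, centred 97 bp upstream of the start site and holding the PU.1 letters shown above, was the strongest promoter of the group. It lay at the 94.0th percentile of all promoter windows in wild type and 13.3 times input, with 109, 112 and 92 wild-type tags and 139, 97 and 91 knockout tags. The highest and the lowest of these were both knockout libraries, and the log2 fold change was -0.16 (SE 0.25, adjusted p 0.998).

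Of the other 12 Aim2 windows, 4 lay upstream of the start site used here, though within the longer RefSeq span of the gene. The rest lay in its introns. One of them, 35919 bp into the gene in intron 5 and singled out for its lack of overlap, had 11, 11 and 20 wild-type tags and 2, 12 and 0 knockout tags. Scaled to library size the knockout libraries were all lower, with a log2 fold change of -1.83 (SE 1.04, adjusted p 0.998). That value was -3.80 without knockout replicate 2 and -1.29 without knockout replicate 3. This window was not above input in either genotype (2.48 times wild-type input, 1.44 times knockout input).

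NLRP1B, a sensor set off when proteases cut it or when DPP8 and DPP9 are inhibited, is encoded on chromosome 11, 11.6 Mb from Nlrp3. H3K27ac over its 3 windows was 77.1, 43.7 and 46.3 CPM in wild type and 41.9, 32.1 and 51.8 CPM in the knockout. Wild-type replicate 1 was the highest and the other 5 libraries were interleaved. The log2 fold change was -0.41 (SE 0.31, 95% interval -1.05 to 0.24, adjusted p 0.942), and it was -0.11 without wild-type replicate 1. The promoter window, 129 bp upstream, had 62, 45 and 16 wild-type tags against 56, 46 and 33, and the direction of its difference (log2 fold change -0.12, SE 0.43) turned to 0.38 without wild-type replicate 1. A window 20806 bp upstream of the start site was singled out after its values were seen, as the highest of the 3 in wild type, a choice that favours a lower knockout value. It lies in an intron of the pseudogene Nlrp1c-ps and was named for Nlrp1b only as its nearest start site. It had 54, 25 and 65 wild-type tags and 23, 21 and 53 knockout tags (log2 fold change -0.75, SE 0.45, adjusted p 0.998), and the value ran from -1.40 without knockout replicate 3 to -0.46 without knockout replicate 2. How tags of Nlrp1b and this related pseudogene were placed is as uncertain as at the Naip genes. Input tags there summed to 10 over the wild-type and 25 over the knockout libraries, and the ratio to input was 9.58 and 3.58.

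Of the ligand receptors, NAIP2 binds the inner rod of bacterial secretion systems. Its gene had 131, 92.1 and 108 CPM over 5 windows in wild type and 115, 73.2 and 122 CPM in the knockout. The libraries overlapped fully, with a log2 fold change of -0.09 (SE 0.23, 95% interval -0.56 to 0.38). The sign was not stable, at 0.05 without wild-type replicate 1 and 0.11 without knockout replicate 2. Of the windows over the start site the stronger one, 243 bp downstream, had 61, 35 and 49 wild-type tags and 72, 37 and 63 knockout tags (log2 fold change 0.04, SE 0.37). It was listed as an accessible site in the knockout list only, yet its wild-type H3K27ac was 11.9 times input and lay at the 73.6th percentile of promoter windows. The overlapping window 25 bp upstream was listed for both genotypes.

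NAIP5 binds flagellin. Naip5 had a single window, 18 bp upstream of its start site, with 26, 23 and 21 wild-type tags and 23, 24 and 18 knockout tags. After scaling to the window libraries the knockout values were all lower, at 10.9 ± 0.785 against 13.7 ± 2.35 CPM (SD, n = 3 each), and on the per-gene scale the groups overlapped. The log2 fold change was -0.33 (SE 0.52, adjusted p 0.998 for the window and 0.988 for the gene). Its interval, -1.44 to 0.77 per gene, was the widest of the 10. Leaving out single libraries moved the value per gene from -0.45 to -0.19.

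Pycard encodes ASC, the adaptor that links AIM2 and NLRP3 to caspase-1. Over its 2 overlapping windows it had 26, 42 and 31 wild-type tags and 34, 17 and 12 knockout tags, with means of 19.9 ± 4.51 and 10.9 ± 6.00 CPM (SD, n = 3 each). After scaling, knockout replicate 1 lay within the wild-type range and the other knockout libraries below it. The log2 fold change of -0.86 (SE 0.51, 95% interval -1.91 to 0.19) had an adjusted p of 0.915, and it was -1.41 without knockout replicate 1 and -0.62 without knockout replicate 3. The window 193 bp downstream of the start site, over the first exon, had 22, 13 and 24 wild-type tags against 16, 12 and 4 (log2 fold change -1.12, SE 0.70, adjusted p 0.998). It stood at 4.13 times wild-type input and 1.88 times knockout input, and in the knockout it did not pass the test against input. The window at 909 bp was too low for the test, with 4, 29 and 7 wild-type tags and 18, 5 and 8 knockout tags.

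**Figure D3:**
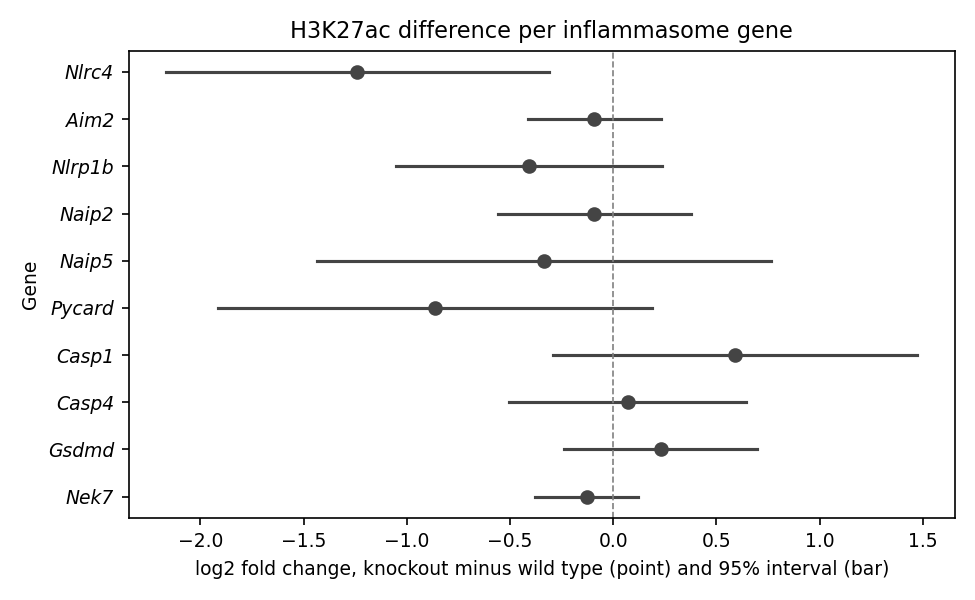
Fitted log2 fold change of H3K27ac, knockout minus wild type, for the 10 inflammasome genes (points) with 95% intervals (bars), 3 libraries per genotype. The interval of Nlrc4 (-2.17 to -0.31) excludes 0 before adjustment for all genes tested, the other 9 include it, and those of Nek7 and Aim2 are the narrowest.

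Of the proteases, caspase-1 is the enzyme that all canonical inflammasomes activate. Casp1 had a single window, centred 139 bp downstream of its start site over the first exon. Wild-type replicates 1, 2 and 3 had 60, 64 and 12 tags, and knockout replicates 86, 59 and 94. Wild-type replicate 3 stood far below the other 5 libraries, which overlapped. With it the log2 fold change per gene was 0.59 (SE 0.43, 95% interval -0.29 to 1.47, adjusted p 0.932), and without it the value was 0.12. Wild-type H3K27ac was 6.70 times input and the 71.1st percentile of promoter windows, and knockout H3K27ac was 11.8 times input.

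Casp4 encodes the mouse caspase-11, which binds bacterial lipopolysaccharide in the cytosol and cuts gasdermin D without a canonical platform. Its single window, 112 bp upstream of the start site and covering the NF-kB letters shown above, had 72, 87 and 100 wild-type tags and 108, 121 and 87 knockout tags. On the CPM scale these were 50.3 ± 5.30 and 52.7 ± 3.89 (SD, n = 3 each), the second highest promoter of the group (89.9th percentile). The groups overlapped, and the log2 fold change per gene was 0.07 (SE 0.28, 95% interval -0.50 to 0.64, adjusted p 0.997), or 0.0022 to 0.14 with single libraries left out. The Casp1 and Casp4 windows are 9081 bp apart, and the drop of wild-type replicate 3 at Casp1 had no counterpart at Casp4, where that library was the highest of the 3.

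Gsdmd, the pore former cut by both proteases, had 107, 88.5 and 116 CPM over 4 windows on chromosome 15 in wild type and 129, 155 and 80.8 CPM in the knockout. The knockout libraries spanned a wider range than the wild-type libraries on both sides. The log2 fold change was 0.23 (SE 0.23, 95% interval -0.24 to 0.70, adjusted p 0.972), and it ranged from 0.01 without knockout replicate 2 to 0.45 without knockout replicate 3. This sum counts some tags more than once, and without overlapping windows the value was 0.32. The promoter window, 37 bp upstream, had 26, 29 and 42 wild-type tags against 40, 55 and 30, and stood at the 57.5th percentile of promoter windows. A stronger intergenic block of 3 overlapping windows lay 4770 to 5335 bp upstream. The middle one, 5029 bp upstream and the strongest over both genotypes, had 51, 42 and 53 wild-type tags against 77, 97 and 38 (log2 fold change 0.29, SE 0.34, adjusted p 0.998, and 0.07 without knockout replicate 2 to 0.55 without knockout replicate 3).

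Gsdmd was the only one of the 5 genes with enough input tags for a test whose input moved at an unadjusted p under 0.05. Input over its windows summed to 20, 33 and 8 tags in wild-type libraries against 20, 9 and 5 in knockout libraries, with a log2 fold change of -0.81 (SE 0.38, adjusted p 0.924). Of the 5, edgeR called 0. Over all genes, 0.200% were called in input and 5.28% stood at an unadjusted p under 0.05. Aim2, Nlrp1b, Naip2 and Nek7 differed in input by 0.05, 0.06, 0.02 and -0.16 on the log2 scale. When the genotype difference of H3K27ac was fitted relative to that of input, the median of all genes shifted by 0.19. Relative to that median Gsdmd stood at 1.05 and Casp1 at 0.90, while Nlrc4 stood at -1.14 and Pycard at -1.55. The adjusted p of the 10 genes ranged from 0.811 (Gsdmd) to 0.989 in this edgeR fit. It called 0 of all 12148 genes tested, so the targeted Nlrp3 was not called either. At an unadjusted p under 0.05 stood 1 of the 10 (Gsdmd, p 0.014) and 724 of all 12148 genes. Nlrc4 had an unadjusted p of 0.233 in it. The part of input in the H3K27ac differences was not tested further.

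Nek7, whose product binds NLRP3 directly and is needed for its assembly, had the most windows of the group, 16 over chromosome 1, and so the largest summed level. It had 504, 441 and 403 CPM in wild type and 457, 376 and 400 CPM in the knockout, and the groups overlapped. The log2 fold change of -0.13 (SE 0.12) had a 95% interval of -0.38 to 0.12, which corresponds to 0.77-fold to 1.09-fold, the narrowest interval of the 10. With single libraries left out it stayed between -0.21 and -0.04, and without overlapping windows, which share tags, it was -0.07. Its strongest window was not at the promoter but 5060 bp into intron 1, at the 98.3rd percentile of distal windows and 16.2 times input in wild type. There, wild-type libraries had 156, 153 and 86 tags and knockout libraries 188, 189 and 77, so replicate 3 of each genotype was low (log2 fold change -0.05, SE 0.28, adjusted p 0.998). Of the windows over the start site the strongest lay 486 bp upstream, with 49, 24 and 81 wild-type tags against 32, 77 and 79.

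One distal Nek7 window had the only unadjusted p under 0.05 of the 43. It lies 77716 bp into the gene, in intron 3, at chr1:138541541-138542541. Wild-type replicates had 67, 62 and 74 tags and knockout replicates 61, 41 and 29, or 39.6 ± 3.51 and 21.9 ± 7.69 CPM (SD, n = 3 each). The knockout libraries were all lower, with a log2 fold change of -0.85 (SE 0.34) and an adjusted p of 0.998, and values from -1.18 to -0.68 with single libraries left out. The next window, centred at 78053 bp and overlapping it, did not share the pattern, with 69, 51 and 40 wild-type tags against 65, 28 and 72 (log2 fold change -0.15, SE 0.38).

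**Figure D4:**
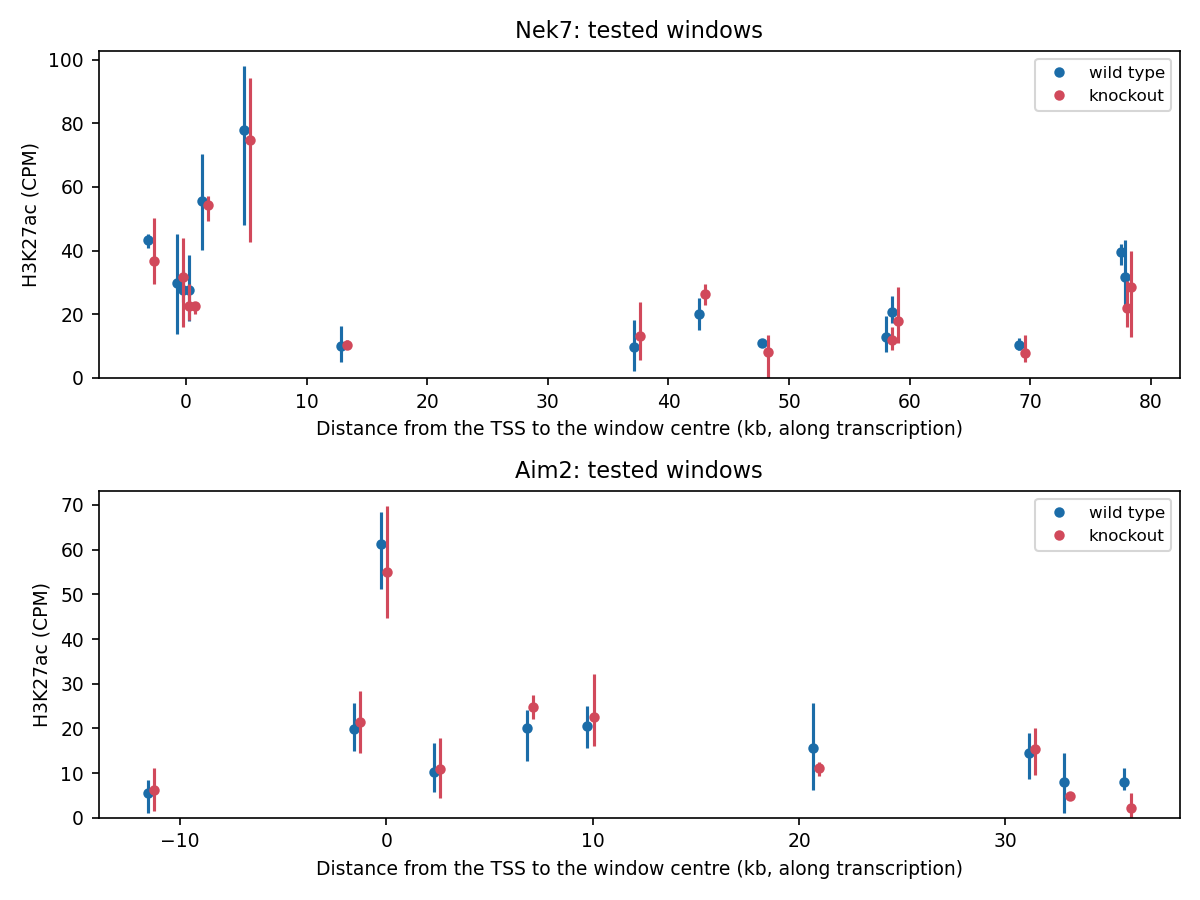
H3K27ac CPM of the tested Nek7 and Aim2 windows by distance of the window centre from the TSS (kb), with points for the mean and bars from the lowest to the highest of 3 libraries, and the genotypes drawn side by side. At Nek7 the highest window lies 5060 bp into the gene and the window at 77716 bp has ranges that do not meet, while at Aim2 the promoter stands above every other window.

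By the site lists of each genotype, 43 of the 49 windows were listed as accessible in both, 4 in wild type only and 2 in the knockout only. Over all windows 75.5% were in both lists. The wild-type-only sites lay at Aim2 (19025 bp upstream and 26699 bp into the gene) and Nek7 (13094 and 58309 bp into the gene), and the knockout-only sites at Aim2 (32991 bp) and Naip2 (243 bp). At the 4 of these 6 that could be tested, the genotypes differed in H3K27ac by log2 fold changes of 0.05 and -0.12 at the Nek7 sites, -0.70 at the Aim2 site and 0.04 at the Naip2 site, with an adjusted p of 0.998 at each.

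Over the 6 H3K27ac libraries, the genes whose log2 CPM ran most like that of Nlrc4 among 12147 genes were Cetn3 (Pearson r = 0.996), Pabpc2 (0.994) and 9330159M07Rik (0.983). For Nek7 they were Jam3 (0.993), Kctd13 (0.991) and Clk3 (0.989). These are the highest values of a search over many genes with 6 points that share depth and genotype, and are given as a description.

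The wider pathway was counted in 4 lists, and edgeR called 0 genes of each. Among other sensors and their regulators, 12 of 26 genes had a window and were tested, 1 of them at an unadjusted p under 0.05 (5.77% of all genes), with a median log2 fold change of -0.22. That gene was Ifi204, a relative of Aim2 in the DNA-sensing IFI200 family. It had 30.7, 30.5 and 33.7 CPM in wild type and 17.3, 11.5 and 20.5 CPM in the knockout, all lower, a separation that 11.3% of all genes showed (log2 fold change -0.95, SE 0.40, adjusted p 0.780). The related Ifi207 (log2 fold change -0.77, from -1.18 without knockout replicate 3 to -0.42 without wild-type replicate 3) and Dpp8, the protease that restrains NLRP1B (-0.39), followed by p.

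Of the genes that license or control NLRP3, 23 of 26 were tested, 3 had an unadjusted p under 0.05 (5.77% of all genes), and the median log2 fold change was 0.01. Txnip, a thioredoxin inhibitor that binds NLRP3, had 370, 504 and 447 CPM in wild type and 339, 345 and 381 CPM in the knockout (log2 fold change -0.31, SE 0.13, adjusted p 0.747). Pstpip1, a partner of the pyrin inflammasome, had 167, 147 and 155 CPM against 212, 187 and 219, with every knockout library higher (log2 fold change 0.40, SE 0.16, adjusted p 0.756). Brcc3, the enzyme that removes ubiquitin from NLRP3, had 11, 8 and 14 wild-type tags and 42, 29 and 24 knockout tags, also without overlap (log2 fold change 1.30, SE 0.59, adjusted p 0.822). Separation of this kind, in either direction, was seen in 11.3% of all genes.

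Among cytokine substrates and cell death genes, 16 of 21 were tested and 0 had an unadjusted p under 0.05, with a median log2 fold change of -0.0066. The smallest p belonged to Casp6 (log2 fold change -1.51, or -2.17 without knockout replicate 3 and -0.97 without knockout replicate 2), Ripk1 (0.51) and Mlkl (-1.08). Among regulators of these genes, 22 of 24 were tested and 2 had an unadjusted p under 0.05 (5.77% of all genes), with a median of -0.09. Ifnar2, a chain of the type I interferon receptor, had a log2 fold change of -0.32 (adjusted p 0.803) that turned to 0.34 when only windows within 1 kb of the start site were summed. Irf8, a lineage factor of microglia, had 406, 434 and 443 CPM in wild type and 362, 343 and 366 CPM in the knockout over 39 windows, all lower as in the 11.3% of genes that separated in either direction (log2 fold change -0.26, SE 0.12, adjusted p 0.815). It stood at 0.12 in the fit relative to input, where the median of all genes was 0.19. Stat2 followed at -1.01.

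**Figure D5:**
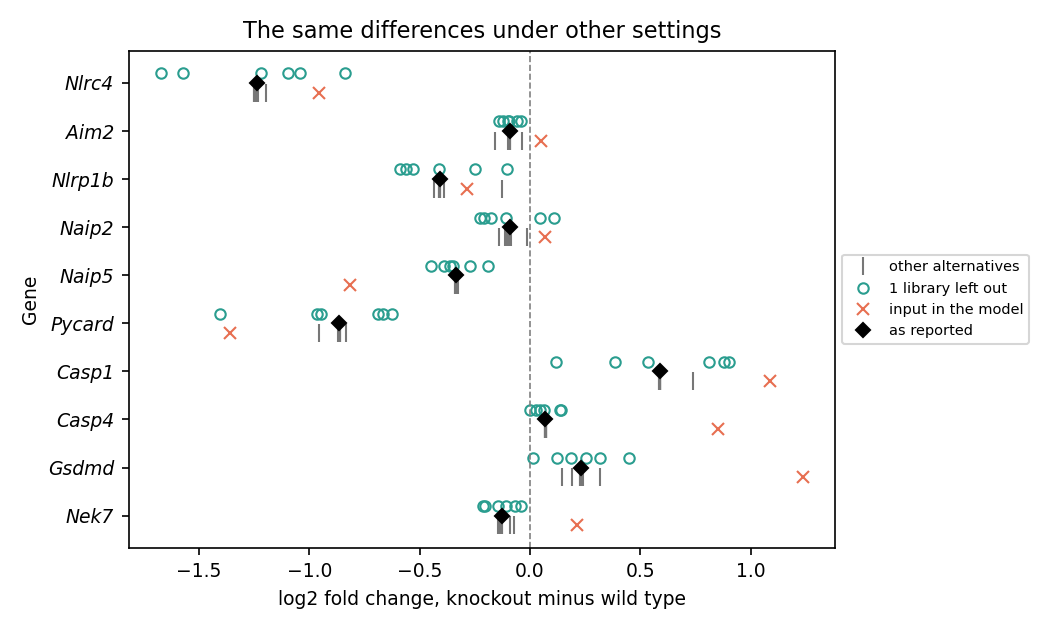
log2 fold change of each inflammasome gene as reported (diamonds), with 1 library left out (circles), with input in the model (crosses) and under the other settings (ticks). Nlrc4, Nlrp1b, Naip5 and Pycard stay below 0 in every setting drawn, Casp1, Casp4 and Gsdmd stay above it, and Aim2, Naip2 and Nek7 fall on both sides. The median of all genes is 0.19 in the fit with input.

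For the question the comparison asks, the upper ends of the intervals describe how precisely each gene was measured. They do not exclude a larger rise. Per gene, the upper end of the 95% interval was 0.81-fold for Nlrc4, 1.09-fold for Nek7, 1.14-fold for Pycard, 1.17-fold for Aim2, 1.18-fold for Nlrp1b and 1.30-fold for Naip2. It was 1.56-fold for Casp4, 1.62-fold for Gsdmd, 1.70-fold for Naip5 and 2.78-fold for Casp1. Casp1 and Naip5, with the highest of these ends, rest on 1 window each. These intervals combine the spread between the libraries, part of which may be technical, with the noise of low tag counts. They also draw on variability that edgeR estimates across genes, so they are not the spread of 1 gene alone. They are not adjusted for the number of genes. After that adjustment the edgeR p of Nlrc4 was 0.624. No intervals were computed for the fit relative to input.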

How the data were processed

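The 10 genes, the pathway lists and the motifs were chosen with earlier results of these data known. The authors deposited raw tag counts for each library in windows of 1000 bp. These counts came from HOMER on mm10 without adjustment, around merged sites whose path names ATAC, as the command in the header shows (per the file headers). HOMER, mm10 and DESeq2 appear in the submitters' processing notes. How reads were aligned and duplicates treated is not stated in these sources. Tags per gene were summed over windows within 100 kb of the nearest TSS. Genotypes were compared over all windows and all genes with edgeR 4.0.16 (TMM, filterByExpr, quasi-likelihood, Benjamini-Hochberg, threshold 0.05), without covariates, in R 4.3.3, and DESeq2 1.42.0 was an alternative. The scripts were tested on simulated data. Each SE is the log2 fold change divided by the root of its F statistic. Ratios to input add 0.5 CPM to both sides. Windows described in full were those nearest the TSS (the stronger within 1 kb), the strongest, and any at an unadjusted p under 0.05. The Nlrc4 window at 26317 bp, the Aim2 window at 35919 bp and the Nlrp1b window at 20806 bp were added after their values were seen. In each list up to 3 genes were named by p. Overlapping windows share tags (8 of the 49 overlap another one counted before them). Replicate numbers were not used to pair wild-type with knockout samples, except in the alternative with the number as a block. In the fits with input, H3K27ac and input libraries of the same number were treated as unpaired, and a pairing of these was not tested.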

Additional observations from a re-analysis of the deposited data

Results flagged for a closer look

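A pair of overlapping windows named for Nek7 lay beyond the 100 kb limit and outside the window counts and gene sums given for Nek7 above, yet carried H3K27ac above input. They are centred 102195 and 102615 bp into the gene, in intron 5. The first stood at 6.39 times wild-type input and 7.76 times knockout input, and the second at 4.15 and 6.06 times. The first had 56, 43 and 30 wild-type tags against 59, 72 and 23 knockout tags, with a log2 fold change of -0.01 (SE 0.40). The second had 32, 17 and 26 against 49, 64 and 18, with a log2 fold change of 0.54 (SE 0.46).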

How the results depend on the processing

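The counts of inflammasome windows and genes called stayed at 0 under every alternative run. The count over all windows (24) was 70 with DESeq2, 68 without an abundance filter and 10 to 29 with 1 library left out. The count over all genes (25) was 16 with total tags, 48 without a filter, 1 with windows within 1 kb of a TSS, 0 in the fit relative to input and 8 to 18 with 1 library left out. With the replicate number as a block it was 15. Same-numbered H3K27ac libraries of the genotypes did not deviate together (r of deviations 0.0033, -0.00063 and 0.0025). This cannot tell whether same-numbered samples were handled together, and the labels name no batch. Input genes called fell from 13 to 6 with total tags. With TMM, windows above input fell from 36059 to 7697 in wild type and from 37269 to 7852 in the knockout, and those of the 10 genes from 40 and 38 to 5 and 5.

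Of 534 values of single genes and windows, 20 changed sign. In the fit relative to input, where the median of all genes was 0.19, log2 fold changes became 0.050 (Aim2), 0.068 (Naip2), 0.21 (Nek7) and 0.12 (Irf8), and with windows within 1 kb Ifnar2 became 0.34. The Nlrp1b promoter window became 0.029 under the replicate block. With 1 library left out, the ranges that crossed 0 were -0.23 to 0.11 for the Naip2 gene, -0.52 to 0.38 for the Nlrp1b promoter window, -0.16 to 0.32 for the Naip2 window at 243 bp, -0.033 to 0.33 for the Gsdmd promoter window, -0.26 to 0.51 for the Nek7 window at 486 bp and -0.31 to 0.22 for the Nek7 window at 5060 bp. The cause was not tested. Windows with at most 31 H3K27ac tags per library, as at Nlrc4, Naip5 and Pycard, limit what could be seen.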
